A study of Mus musculus with 6 samples.

Results

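The transcription factors that hold muscle stem cells (MuSCs) in the muscle lineage and take them through myogenesis were examined in MuSCs of mice without and with a conditional deletion of Dio2. Dio2 encodes type 2 deiodinase (D2), the enzyme that converts the prohormone thyroxine into active thyroid hormone. The 9 members were taken by name from the 31053 genes of the deposited table. They are the stem factors Pax7, Pax3 and Six4, the commitment factors Myf5 and Myod1, the differentiation factors Myog and Myf6, the basic helix-loop-helix (bHLH) repressor Msc and the bHLH partner Tcf12. RNA was sequenced from freshly sorted MuSCs of hindlimb muscles at rest, in 3 cD2KO mice (fl125, fl126 and fl128) and in 3 controls, called WT (c124, c129 and c130), all 3 to 4 months old. WT mice were Pax7nGFP/+;Pax7+/+;Dio2Fl/Fl and cD2KO mice were Pax7nGFP/+;Pax7-CreERT2/+;Dio2Fl/Fl. Mice of both groups were given tamoxifen, carried the floxed Dio2 alleles and carried the Pax7-nGFP reporter, by whose fluorescence the cells were sorted. Only cD2KO mice carried the Cre recombinase, expressed from Pax7, so the presence of Cre and the loss of Dio2 cannot be told apart. The labels write Pax7-CreERT2/+ where they write Pax7+/+ for WT, whereas the study's text writes the Cre as a transgene, and whether the Cre allele changes the transcript counted as Pax7 was not tested.

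PAX7 is the paired-box factor that defines adult MuSCs and is needed for their upkeep, and PAX3 is its close relative, prominent in embryonic muscle progenitors and in MuSCs of some adult muscles. The homeodomain factor Six4 acts upstream of the myogenic regulatory factors. The latter are 4 related bHLH proteins: MYF5 and MYOD commit cells to myogenesis, myogenin (Myog) drives terminal differentiation, and MRF4 (Myf6) is most abundant in mature fibers. They bind DNA at E-boxes as dimers with E proteins, of which Tcf12 encodes HEB, and musculin (Msc, also called MyoR) competes at such sites as a repressor. In resting muscle, MuSCs typically hold Pax7 and Myf5 transcripts, with little myogenin.

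Promoter sequence is shown for a stem, a commitment and a differentiation factor, because E-boxes (CANNTG) and the MEF3 motif (TCAGGTT), bound by Six4, are where the proteins described here can bind. Windows from 250 bases before to 50 bases after the start site came from RefSeq for GRCm38.p6, the build also called mm10. They were listed for 5 of the 9 members, namely Pax7, Six4, Myf5, Myog and Tcf12, and not for Pax3, Myod1, Myf6 or Msc. Six4 had 2 windows listed and Tcf12 had 3, and only the window nearest the annotated start of each gene was searched. Each is written 5′ to 3′ on the strand of the gene, with E-boxes and MEF3 motifs found on either strand in capitals.
Pax7 (chr4:139832919-139833218, minus strand): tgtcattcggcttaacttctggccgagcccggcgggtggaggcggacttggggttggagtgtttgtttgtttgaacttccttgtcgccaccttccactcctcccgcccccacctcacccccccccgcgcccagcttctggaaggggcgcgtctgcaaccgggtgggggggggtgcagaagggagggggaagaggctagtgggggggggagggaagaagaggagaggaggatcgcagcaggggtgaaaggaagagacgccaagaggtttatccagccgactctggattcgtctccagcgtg
Myf5 (chr10:107486085-107486384, minus strand): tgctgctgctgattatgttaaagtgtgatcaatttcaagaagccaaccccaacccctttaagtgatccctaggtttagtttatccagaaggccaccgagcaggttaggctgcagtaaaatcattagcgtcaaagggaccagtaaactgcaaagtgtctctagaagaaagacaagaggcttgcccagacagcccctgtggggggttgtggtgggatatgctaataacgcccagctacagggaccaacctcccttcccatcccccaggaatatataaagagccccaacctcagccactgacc
Myog (chr1:134289754-134290053, plus strand): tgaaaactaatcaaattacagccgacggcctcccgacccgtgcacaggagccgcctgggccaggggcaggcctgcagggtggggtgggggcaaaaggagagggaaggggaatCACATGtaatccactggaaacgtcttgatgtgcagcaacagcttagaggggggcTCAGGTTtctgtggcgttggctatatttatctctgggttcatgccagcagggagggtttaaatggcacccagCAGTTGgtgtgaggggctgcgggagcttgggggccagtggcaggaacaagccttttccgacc
The Myog window held 2 E-boxes, CACATG beginning 138 bases and CAGTTG beginning 12 bases before the start site. Between them lay a MEF3 motif, which began 84 bases before the start. The Tcf12 window searched held 1 E-box, CAGCTG, beginning 240 bases before the start, and neither motif was found in the windows searched for Pax7, Six4 or Myf5. Of all 32851 windows of this length, 72.3% held an E-box and 4.1% held the MEF3 letters, and a match describes the letters only.

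The libraries held between 2184073 and 3897787 counts, and 3 counts corresponded to 0.770 to 1.37 counts per 1000000 counts (CPM, scaled with TMM factors where levels are given). Dio2, the targeted gene, had 21, 5 and 10 counts in c124, c129 and c130 and 15, 5 and 1 counts in fl125, fl126 and fl128. The groups overlapped, so the total of reads per gene did not separate the genotypes (3.56 ± 1.77 CPM in WT mice against 2.94 ± 3.41 CPM in cD2KO mice, SD, n = 3 each, exact permutation p = 0.7). Gene totals do not show whether reads fell in the deleted part. All 18 MuSC markers examined, Pax7 and Myf5 included, had counts in every library, and so did all 12 mural, 15 muscle fiber and 8 Schwann cell markers. The 16 MuSC markers that are not members summed to 2062 to 2507 CPM in WT mice and 2768 to 3264 CPM in cD2KO. This separation was lost without Des, the desmin gene, which is also a mural marker. Without Des the sum was 1812 to 2139 CPM in WT mice and 1931 to 2813 CPM in cD2KO, with overlap. The largest part of that sum was Chodl, which ran from 541 CPM in fl128 to 1364 CPM in fl125. The overlap came from fl128, at 1931 CPM against 2102 and 2139 CPM in c124 and c130. With Chodl left out as well as Des, all cD2KO mice again lay above all WT mice, though narrowly. Leaving out Chodl was a choice made after these values were seen, and the separation thus depends on which genes are summed. By the unadjusted rule (p under 0.05) 5 of the 18 MuSC markers were higher in cD2KO mice, 2 were lower (Cxcr4 and Sdc3) and 11 did not pass, with a median log2 fold change of 0.22. Over all 11633 genes tested, this rule called 5.34% higher and 6.62% lower, the shares beside which the marker counts of this paragraph stand. The 15 macrophage and immune markers summed to 4599 to 8666 CPM in WT mice and 231 to 2989 CPM in cD2KO, with fl125 at the lowest value and with Cx3cr1 at 0 there, and their log2 fold changes were below 0 for 15 of 15 (median −1.89), of which 3 passed. Mural markers summed to 6218 to 10434 CPM in WT mice and 12409 to 18552 CPM in cD2KO, and this separation was lost without Acta2 and Myh11, the abundant smooth muscle genes (2666 to 4356 and 4093 to 4902 CPM). That overlap came from c124, where Rgs5 alone was at 2148 CPM. Rgs5 ran from 840 CPM in fl128 to 2317 CPM in fl125. With Rgs5 left out too, a choice made after these values were seen, all cD2KO mice lay above all WT mice. Of the 12 mural markers 6 were higher and 0 lower (median 0.55). The 6 were Notch3, Myh11, Acta2, Tagln, Cnn1 and Des, whereas Rgs5, Pdgfrb, Cspg4, Abcc9, Kcnj8 and Higd1b did not pass. The fibro-adipogenic, muscle fiber, Schwann cell and endothelial sums overlapped between the groups, at 2905 to 7541, 3121 to 10186, 5714 to 8878 and 269 to 472 CPM over the 6 mice. Gene by gene, 7 of 13 endothelial markers tested were lower (median −1.24), 3 of 12 fibro-adipogenic markers were lower and 1 was higher (median −0.57), 2 of 15 fiber markers were higher with all 15 above 0 (median 0.55), and 1 of 8 Schwann cell markers was lower (median 0.26). At most 3 of the 15 endothelial markers were at 0 in a library (of Tie1, Cldn5, Erg and Robo4), and Pi16 of the fibro-adipogenic list was at 0 in fl125. In such bulk samples, fewer MuSCs and less of a transcript per MuSC cannot be told apart, and the part of the other cell types in the results below was not tested.

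**Figure D1:**
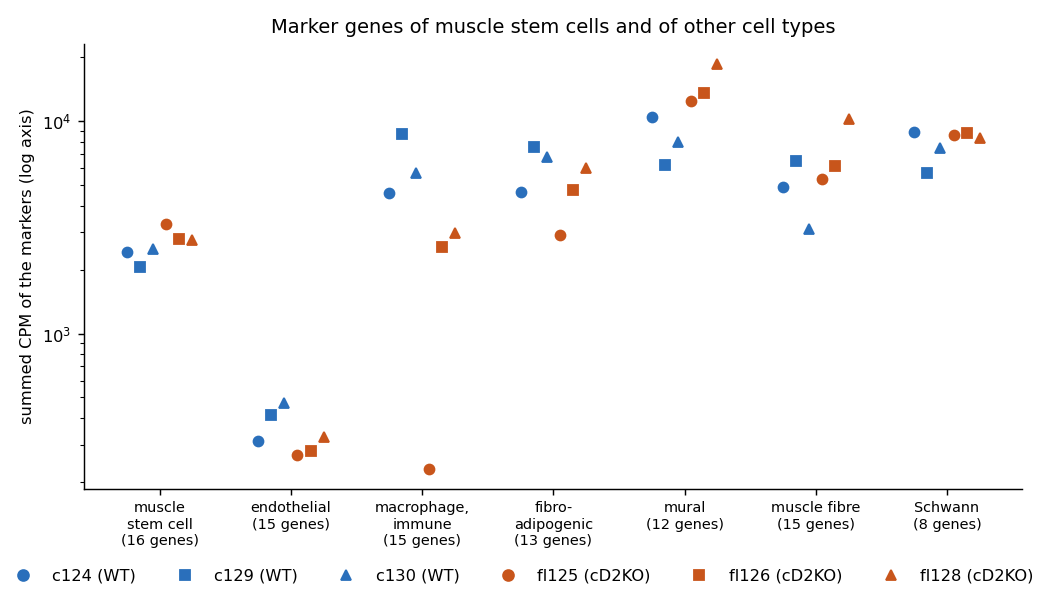
Summed CPM of each marker list (log axis) in each library, with WT mice in blue and cD2KO mice in orange and a symbol for each mouse. All cD2KO libraries lie below the WT libraries for immune markers, where fl125 is at 231 CPM, and above them for MuSC and mural markers, which overlap once Des, or Acta2 and Myh11, are left out of the sum. These overlaps are gone again if Chodl, or Rgs5, is left out too.

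Pax7 was the most abundant of the 9 factors, and no factor separated the genotypes. Per kilobase of merged exons, Pax7 stood at a mean of 71.2 CPM per kb over the 6 mice, above 94.5% of the genes tested. Next came Msc at 38.0, Myf5 at 18.8, Myog at 16.8, Myod1 at 14.2 and Tcf12 at 5.75 CPM per kb, and then Pax3 at 1.002, Myf6 at 0.747 and Six4 at 0.562 CPM per kb. Pax7 exceeded Msc, and Msc exceeded Myf5, in 6 of 6 mice. The order within the myogenic regulatory factors was less firm, since Myf5 exceeded Myog in 3 mice and Myog exceeded Myod1 in 5. Myod1 lay above Tcf12, and Tcf12 above Pax3, in all 6 mice, whereas Pax3, Myf6 and Six4 interleaved. How reads fall along a transcript was not given in the sources used here, and a library that reads transcript ends would not scale with length.

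**Figure D2:**
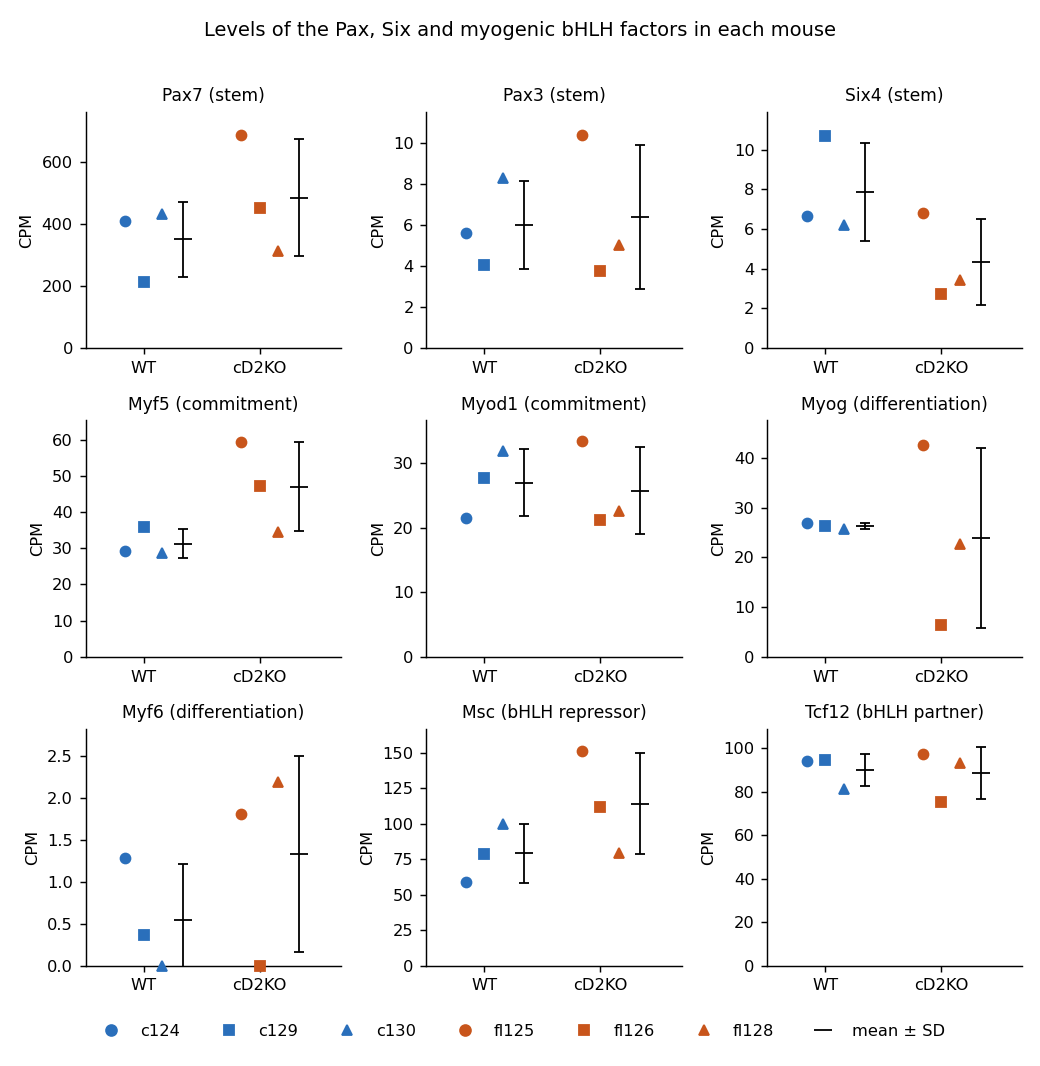
CPM of each of the 9 factors in the 3 WT mice (blue) and the 3 cD2KO mice (orange), with the group mean and SD beside the points and an axis from 0 in every panel. The groups overlap for all 9 factors, fl125 is the highest mouse in 7 panels and fl126 the lowest, alone or tied, in 6.

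At an unadjusted p under 0.05 in the quasi-likelihood test of edgeR, 1 of the 8 members tested was higher in cD2KO mice and 0 were lower. Over all 11633 genes tested, 5.34% were higher and 6.62% were lower by the same rule, so the members' count lay near the background. After Benjamini-Hochberg adjustment in edgeR no member passed 0.05, and 0.00860% of all genes did (1 gene). At an unadjusted p, DESeq2 and limma voom each called 0 members. All 9 members overlapped between the groups, whereas 8.05% of genes had all cD2KO mice above all WT mice and 10% had them all below. The median log2 fold change (cD2KO over WT) of the 8 members was 0.02, with 4 of them above 0, and that of all genes was −0.02, with 48.1% above 0.

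**Figure D3:**
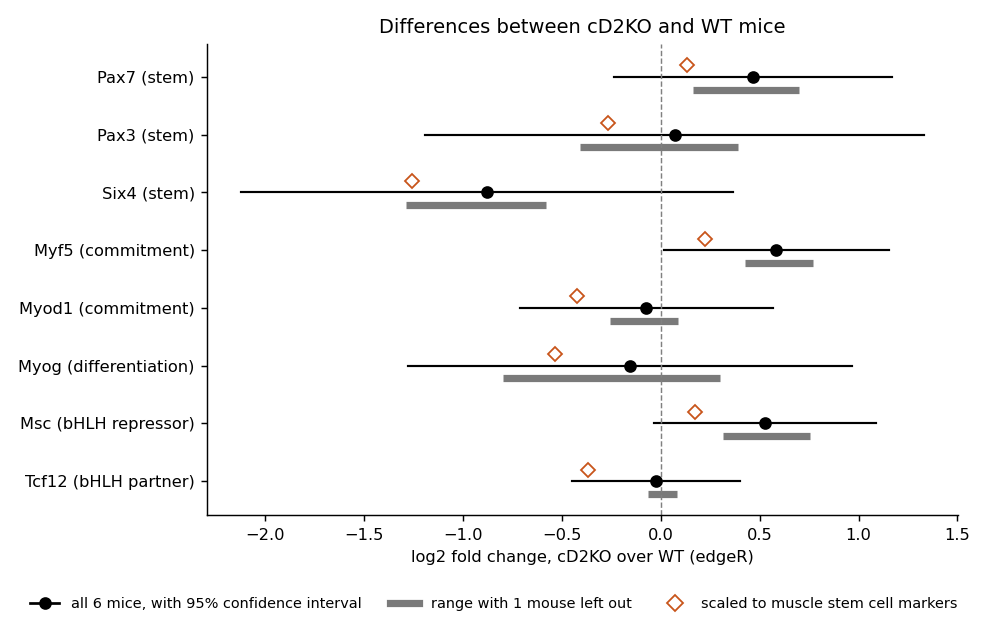
Log2 fold change (cD2KO over WT) of the 8 factors tested, with the 95% confidence interval from edgeR (black), the range over the fits that leave out 1 mouse (grey bar) and the value with libraries scaled to MuSC markers (open diamond). Of the intervals, that of Myf5 alone lies above 0, from 0.02 to 1.15, and the MuSC-scaled value lies to the left of the TMM-scaled one for every factor.

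Among the stem factors, Pax7 (ENSMUSG00000028736, mm10 4:139737062-139833528, minus strand) had levels of 408, 212 and 431 CPM in c124, c129 and c130, and of 687, 452 and 314 CPM in fl125, fl126 and fl128. The highest mouse was cD2KO and the lowest was WT, but fl128 lay below c124 and c130. Means were 350.4 ± 121 CPM in WT mice and 485 ± 189 CPM in cD2KO (SD, n = 3 each). The log2 fold change was 0.47 with a standard error of 0.32 and a 95% confidence interval of −0.23 to 1.17, and it did not pass the test (edgeR unadjusted p = 0.172, adjusted p = 0.623). Counting error was small here, with 573 to 1595 counts per library and a counting coefficient of variation (CV) of at most 2.96%, against a CV between mice of 34.5% in WT and 39.0% in cD2KO. The same mice, c129 and fl125, held the highest and the lowest summed immune level, and whether the cell makeup moved Pax7 was not tested.

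Pax3 (ENSMUSG00000004872, 1:78101267-78197134, minus strand) was low, at 5.63, 4.06 and 8.31 CPM in the WT mice and 10.4, 3.76 and 5.02 CPM in the cD2KO mice. These levels rest on 11 to 24 counts, and both the highest and the lowest mouse were cD2KO. For Pax3 the log2 fold change was 0.07 ± 0.59 (SE), with a 95% confidence interval of −1.19 to 1.33 (edgeR adjusted p = 0.977). Its direction turned when the library with the highest level, fl125, was left out (−0.41), so no direction can be given. Pax3 held 1.38, 1.92 and 1.93 counts per 100 Pax7 counts in WT mice and 1.51, 0.832 and 1.6 in cD2KO mice.

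Six4 (ENSMUSG00000034460, 12:73099609-73113456, minus strand) had the lowest level of the 9 per length. It stood at 6.66, 10.7 and 6.23 CPM in c124, c129 and c130 and at 6.79, 2.74 and 3.45 CPM in fl125, fl126 and fl128. Here fl126 and fl128 lay below every WT mouse, while fl125 lay above c124 and c130. Six4 had a log2 fold change of −0.88 ± 0.58 (SE) with a 95% confidence interval of −2.12 to 0.37, from 8 to 29 counts per library (edgeR unadjusted p = 0.153, adjusted p = 0.599). With libraries scaled to MuSC markers it was −1.26 (unadjusted p = 0.0491 in edgeR), beside a shift of the median of all genes to −0.35, and without Des in that scaling it was −1.13 and did not pass (unadjusted p = 0.0723 in edgeR).

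Among the commitment factors, Myf5 (ENSMUSG00000000435, 10:107482908-107486134, minus strand) was the member that passed the unadjusted threshold. Its levels were 29.2, 35.8 and 28.7 CPM in c124, c129 and c130 and 59.3, 47.2 and 34.5 CPM in fl125, fl126 and fl128. The groups touched, since fl128 lay just under c129, but fl125 and fl126 were above every WT mouse. Means were 31.2 ± 3.96 CPM in WT mice and 47.0 ± 12.4 CPM in cD2KO (SD, n = 3 each), a 1.5-fold difference. The log2 fold change was 0.59 ± 0.26 (SE) with a 95% confidence interval of 0.02 to 1.15 (edgeR unadjusted p = 0.0437, adjusted p = 0.399). The exact permutation test of the CPM gave p = 0.2, and no p under 0.1 is possible with 3 mice per group. The call was lost without c124, without c130, without fl125 and without fl126, with values of 0.43 to 0.58 in these fits, and it was lost under DESeq2 (0.60, unadjusted p = 0.0512). With libraries scaled to MuSC markers the difference was 0.23 (unadjusted p = 0.430 in edgeR), and without Des in that scaling it was 0.35 (unadjusted p = 0.227 in edgeR).

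Myod1 (ENSMUSG00000009471, 7:46376474-46379099, plus strand) encodes MYOD, whose protein rises as MuSCs activate. Its level was 21.5, 27.7 and 31.8 CPM in the WT mice and 33.5, 21.2 and 22.6 CPM in the cD2KO mice. The groups lay on top of each other, and the highest and lowest mice were both cD2KO. The difference was −0.07 on the log2 scale, ± 0.30 (SE) with a 95% confidence interval of −0.71 to 0.57, which leaves room for a 1.48-fold rise (edgeR adjusted p = 0.959). With values of −0.26 to 0.09 over the fits that left out 1 mouse, its sign was not fixed.

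Among the differentiation factors, Myog (ENSMUSG00000026459, 1:134289989-134292548, plus strand) differed little in its group means and, of the 8 members tested, most in its spread among cD2KO mice. The WT mice stood at 26.9, 26.2 and 25.6 CPM, and fl125, fl126 and fl128 at 42.6, 6.50 and 22.6 CPM. The highest and the lowest of the 6 mice were thus both cD2KO, with 94 counts in fl125 and 19 in fl126. The CV between mice was 2.43% in WT, under the 10.9% that counting alone gives at these depths, and 75.6% in cD2KO, where counting gives 12.7%. Between the groups the log2 fold change was −0.15 ± 0.51 (SE) with a 95% confidence interval of −1.28 to 0.97 (edgeR adjusted p = 0.946). Its direction rested on fl126, without which the value was 0.30 (unadjusted p = 0.400 in edgeR). A difference in spread between 3 mice and 3 was not tested.

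Myf6 (ENSMUSG00000035923, 10:107492853-107494737, minus strand) lies 6718 bases from Myf5 and was below the expression minimum. It had 5, 1 and 0 counts in the WT mice and 4, 0 and 7 counts in the cD2KO mice. The largest of these was 2.2 CPM in fl128, with an exact Poisson 95% interval of 0.884 to 4.53 CPM, and the same interval for the counts of 0 reached up to 1.28 CPM in c130 and 1.26 CPM in fl126. Such intervals cover counting error only. A difference was not detectable at this depth (exact permutation p = 0.4 on the CPM, n = 3 each).

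Of the bHLH proteins that tune these factors, Msc (ENSMUSG00000025930, 1:14753346-14755992, minus strand) was the more variable. It stood at 58.9, 78.6 and 100.03 CPM in c124, c129 and c130 and at 151, 112 and 79.8 CPM in fl125, fl126 and fl128. Both fl125 and fl126 exceeded every WT mouse, while fl128 fell between c129 and c130. A log2 fold change of 0.53 ± 0.26 (SE), with a 95% confidence interval of −0.03 to 1.09, did not pass the test of edgeR (adjusted p = 0.453, unadjusted 0.0628), and with libraries scaled to MuSC markers it was 0.18. Its exons overlap those of Gm9947 on the opposite strand, which had 71, 20 and 29 counts in the WT mice and 54, 33 and 21 in the cD2KO mice. Strand use was not given in the sources used here, and these reads, 8.27 to 30.9 per 100 reads of Msc, cannot be assigned with certainty.

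Tcf12 (ENSMUSG00000032228, 9:71842688-72111871, minus strand) had the narrowest spread among cD2KO mice. Its levels were 94.2, 94.5 and 81.3 CPM in the WT mice and 97.4, 75.2 and 93.3 CPM in the cD2KO mice, with a CV of 8.36% and 13.3%. The 6 mice spanned a narrow range with the groups interleaved. Between cD2KO and WT it differed by −0.02 on the log2 scale, ± 0.20 (SE), and its 95% confidence interval of −0.45 to 0.40 corresponds to 0.733-fold to 1.32-fold (edgeR adjusted p = 0.977).

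The same 2 mice, both cD2KO, often held the extremes. Library fl125 held the highest level of 7 of the 9 factors, against 21.3% of all genes tested, and fl126 held the lowest, alone or tied, of 6, against 12.8% of all genes. These counts describe the ranks of correlated genes in 2 libraries, and fl125 was also the library with the lowest immune sum (231 CPM) and the highest MuSC sum (3264 CPM). Of that MuSC sum, 1364 CPM came from Chodl alone, which was at 541 to 830 CPM in the other mice, so the rank does not stand for MuSC markers in general.

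Ratios between members within a library do not depend on how libraries are scaled, and they address the balance of stem, commitment and differentiation transcripts. Myf5 counts per 100 Pax7 counts were 7.15, 16.9 and 6.66 in c124, c129 and c130 and 8.63, 10.4 and 11.0 in fl125, fl126 and fl128. The WT mice spanned the cD2KO mice, and c129 combined the lowest Pax7 of all mice with the highest Myf5 of the WT mice. The mean log2 ratio differed by 0.10 between cD2KO and WT (exact permutation p = 0.9, n = 3 each).

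Myod1 counts per 100 Pax7 counts were 5.27, 13.1 and 7.38 in the WT mice and 4.88, 4.69 and 7.20 in the cD2KO mice. Both fl125 and fl126 lay below every WT mouse, and fl128 lay between c124 and c130. The log2 ratio was lower by a mean difference of −0.54 (exact permutation p = 0.2, adjusted over the 6 ratios to 0.9). Myog counts per 100 Pax7 counts were 6.58, 12.4 and 5.94 in the WT mice and 6.19, 1.44 and 7.20 in the cD2KO mice, a difference of −0.96 in log2 ratio (exact permutation p = 0.5) in which fl126 was the low mouse. Myog counts per 100 Myod1 counts were 125, 94.7 and 80.4 in the WT mice and 127, 30.6 and 100 in the cD2KO mice. Outside fl126, then, the libraries held close to equal counts of both (difference in log2 ratio −0.42, exact permutation p = 0.9).

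The Pax3 to Pax7 ratio differed by −0.44 (exact permutation p = 0.3) and the Myf6 to Myf5 ratio, from 0 to 7 Myf6 counts, by 0.31 (exact permutation p = 0.9). All 6 ratios overlapped between the groups, and all adjusted p were 0.9.

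**Figure D4:**
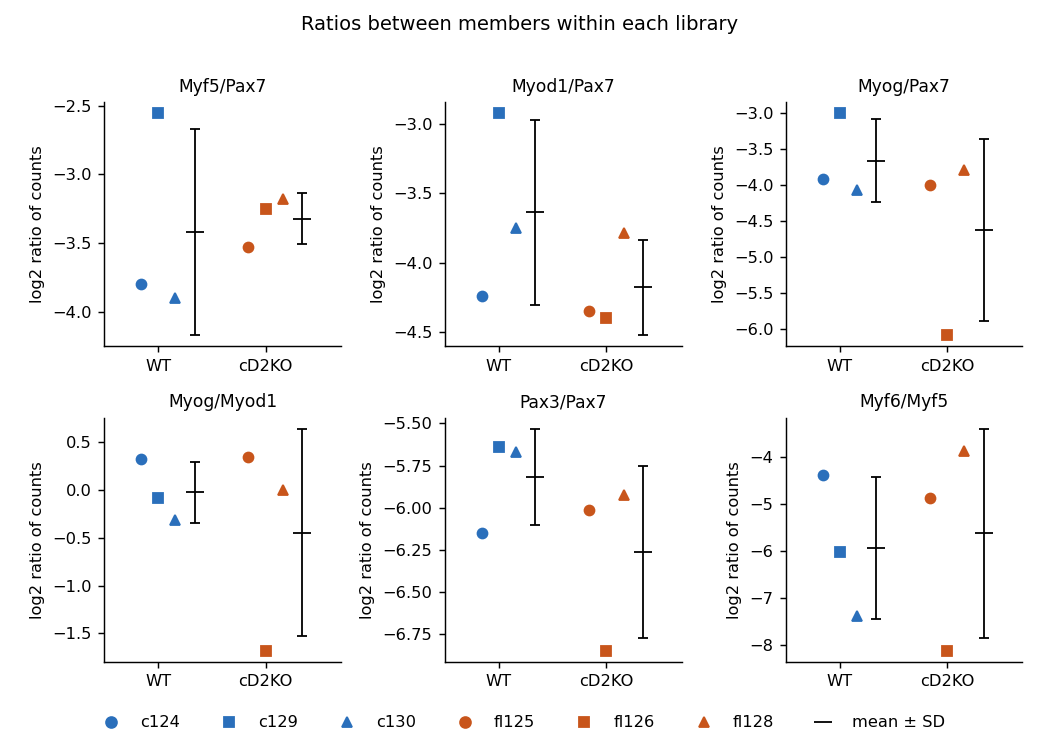
Log2 ratio of the counts of 2 factors within each library, for 6 pairs, in WT (blue) and cD2KO (orange) mice with the group mean and SD. The groups overlap in all 6 panels, and fl126 has the lowest ratio of Myog to Pax7 and of Myog to Myod1.

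The genes that work with these factors were examined in 4 lists. Over all 11633 genes tested, 5.34% were higher and 6.62% were lower at an unadjusted p under 0.05 in edgeR. These shares stand beside the counts of each list, and the first 3 lists, with 1 or 2 genes called each, lay near them. Of 18 partners of Pax7, Pax3 and Six4, 16 were tested, 1 rose, 0 fell and 15 did not pass, with a median log2 fold change of 0.04. The list holds Six2 and Six5, the Eya and Dach cofactors, homeobox factors of muscle and parts of the methyltransferase complex that PAX7 recruits, and Dach2 was at 0 counts in all 6 mice. The gene that rose was Six5, which encodes a homeodomain factor related to Six4. It stood at 24.8, 19.2 and 14.5 CPM in WT mice and 37.6, 33.2 and 25.8 CPM in cD2KO, without overlap (log2 fold change 0.71 ± 0.30 SE, edgeR unadjusted p = 0.0341, adjusted p = 0.377). Six5 did not pass without c129, without c130, without fl125 or without fl126 (0.56 to 0.71), nor with total counts (0.65) or MuSC scaling (0.37), where 0 genes of the list rose and 4 fell (0 and 0 without Des in that scaling).

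Of 18 E proteins and bHLH inhibitors, 15 were tested, 0 rose, 2 fell and 13 did not pass, with a median of −0.26. The 2 that fell were Id1 and Id3, whose products bind E proteins and keep them from pairing with MYOD. Id1 was at 89.1, 171 and 155 CPM in the WT mice and 86.9, 96.1 and 93.6 CPM in the cD2KO mice (log2 fold change −0.58 ± 0.24 SE, edgeR unadjusted p = 0.0286, adjusted p = 0.361). Id3 was at 206, 308 and 324 CPM in WT mice and 184, 207 and 190.0 CPM in cD2KO (−0.53 ± 0.21, edgeR unadjusted p = 0.0260, adjusted p = 0.354). For both genes c124 lay within the range of the cD2KO mice. Without c129 or c130, the highest WT mice, Id1 was −0.38 or −0.46 and Id3 −0.43 or −0.38, and neither passed. Without 1 cD2KO mouse the folds stayed at −0.50 to −0.61 for Id1 and −0.45 to −0.58 for Id3, just short of the threshold (unadjusted p in edgeR of 0.0507 to 0.0662 and of 0.0517 to 0.0544). Id1 also missed it with voom (−0.52, unadjusted p = 0.0562), while with MuSC scaling 8 genes of the list fell, and 4 without Des in that scaling. Tcf3, which encodes the E proteins E12 and E47, did not pass, at 19.8 ± 2.42 CPM in WT mice and 20.8 ± 1.05 CPM in cD2KO (SD, n = 3 each).

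Of 15 Mef2 factors and MyoD coactivators, 14 were tested, 1 rose, 0 fell and 13 did not pass, with a median of −0.04. The gene that rose was Smarcd3, which encodes the BAF60C subunit through which MYOD engages the SWI/SNF chromatin remodeler. It stood at 128, 121 and 193 CPM in the WT mice and 211, 286 and 338 CPM in the cD2KO mice. The groups did not overlap (log2 fold change 0.92 ± 0.24 SE, edgeR unadjusted p = 0.00181, adjusted p = 0.124). Smarcd3 also passed at the unadjusted threshold with any 1 mouse left out (0.75 to 1.19), without both c129 and fl125 (0.995) and with MuSC scaling (0.62, unadjusted p = 0.0338 in edgeR).

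Of 19 fusion and early differentiation targets, 15 were tested, 6 rose, 0 fell and 9 did not pass, with a median of 0.69 and 13 of the 15 above 0. Over all genes tested the median was −0.02, and 5.34% were higher by the same rule. The 6 were Ckb, Tnnc1, Tnnt1, Cdh15, Rapsn and Tnni1. In all 6 every cD2KO mouse lay above every WT mouse, as in 8.05% of all genes tested, and they were picked by p between these same mice. Tnnc1, Tnnt1 and Tnni1 encode troponins of slow and developing muscle, Ckb a creatine kinase, Rapsn a protein that clusters acetylcholine receptors, and Cdh15 M-cadherin, which MuSCs themselves carry. Ckb was at 171, 113 and 139 CPM in WT mice and 210.1, 204 and 238 CPM in cD2KO (log2 fold change 0.62 ± 0.20 SE, edgeR unadjusted p = 0.00868, adjusted p = 0.212). Tnnc1 was at 4.10, 2.21 and 3.12 CPM in WT mice and 14.5, 5.13 and 11.6 CPM in cD2KO, from 6 to 37 counts (1.69 ± 0.58, edgeR unadjusted p = 0.0110, adjusted p = 0.239). Tnnt1 was at 48.9, 32.1 and 21.8 CPM in WT mice and 52.1, 51.0 and 74.1 CPM in cD2KO (0.78 ± 0.29, edgeR unadjusted p = 0.0195, adjusted p = 0.316). These 3 genes passed while Myog, whose targets include genes of this list, had a log2 fold change of −0.15. Of the mature fiber markers 15 of 15 had log2 fold changes above 0 (median 0.55) and 2 passed, although their sums overlapped at 3121 to 6477 CPM in WT mice and 5371 to 10186 CPM in cD2KO. Library fl128 had the highest fiber sum, the highest Tnnt1 and the highest Ckb, and the part of fiber RNA, or of the mural cells whose markers were higher for 6 of 12, was not tested. The fusion genes Mymk and Mymx, targets of the myogenic regulatory factors, were not among those that rose. Mymk was at 7.58 ± 4.47 CPM in WT mice and 7.59 ± 6.59 CPM in cD2KO (SD, n = 3 each), and Mymx, below the minimum, had 10, 12 and 0 counts in WT and 1, 2 and 1 in cD2KO. The 6 genes that rose became 3 without c129 and 3 without fl128, 4 without both c129 and fl125, 3 with total counts and 1 with MuSC scaling (Tnnc1, 1.36, or 1.51 without Des in that scaling).

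**Figure D5:**
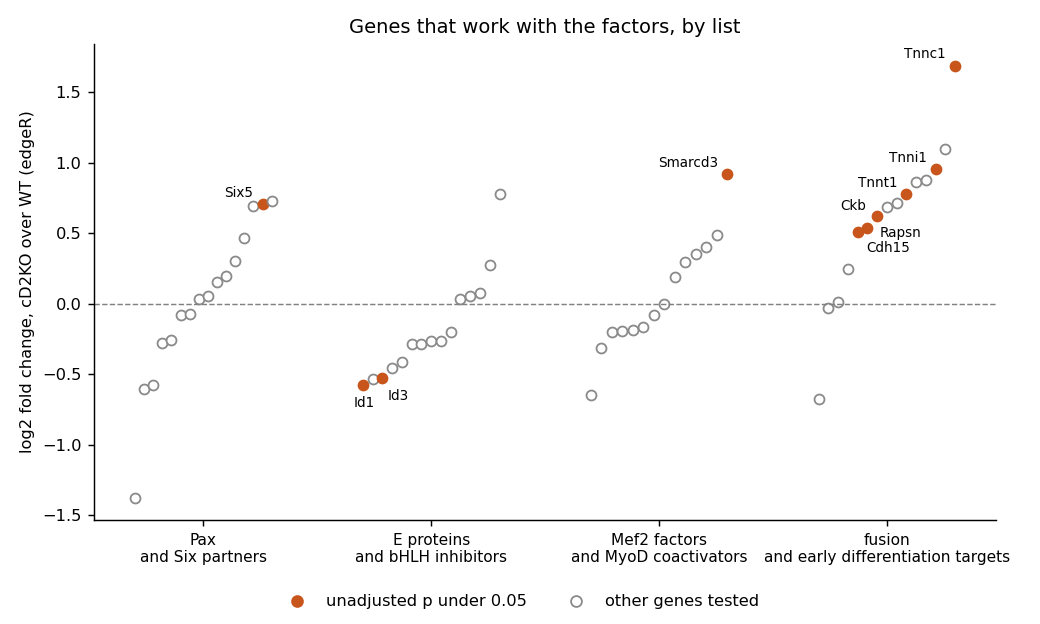
Log2 fold change (cD2KO over WT, edgeR) of every tested gene of the 4 lists, in rising order within a list, with genes at an unadjusted p under 0.05 filled and named. The list of fusion and early differentiation targets has 6 filled genes, all above 0, and the list of E proteins and bHLH inhibitors has 2, both below 0.

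The genes most like Pax7, Myf5 and Myod1 over the 6 mice were sought by Pearson's correlation of log2 CPM among genes with a mean above 50 CPM (3523 compared for Pax7 and 3524 for the other two). These correlations mix both genotypes and share each mouse's library and cell composition, so they are given as a description. For Pax7 they were Dtx4 (r = 0.995), Dag1 (0.988) and Wdr83os (0.985). Dtx4, which encodes a Deltex E3 ligase, ran from 179 CPM in c129 to 383 CPM in fl125, the same extremes as Pax7, and Dag1, which encodes dystroglycan, ran from 327 to 750.4 CPM in the same mice. For Myf5 they were Ndufab1 (0.979), Znhit1 (0.979) and Ate1 (0.951), and for Myod1 they were Set (0.980), Sirt7 (0.972) and Card10 (0.959). None of these 9 genes passed the test between the genotypes, with unadjusted p in edgeR from 0.0875 to 0.954. They were picked for following a member over these same mice, so this is no separate test of the genotype.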

How the data were processed

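MuSC RNA of 6 mice, 1 library per mouse, was analysed; the groups follow the genotype in the labels. The authors deposited raw counts of reads per gene, with no normalization. The submitters' processing notes name bcl2fastq, STAR 2.6.0a, HTSeq 0.9.1 and mm10, and the labels name a digital RNA-seq service. Strand setting and duplicate removal are not given in the sources used here. Symbols and coordinates came from GENCODE M21, in which 30934 of 31053 identifiers were found.

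From the counts, genes with a mean DESeq2-normalized count above 10 were kept (11633). They were fitted with TMM factors and robust quasi-likelihood fits (edgeR 4.0.16, R 4.3.3) to all 6 mice with no covariate. The threshold was an unadjusted p under 0.05, with p-values also given after Benjamini-Hochberg adjustment over the 11633 genes. Log2 ratios used a pseudocount of 0.5 and two-sided exact permutation tests. Log2 CPM for correlations used a prior count of 2. Alternatives were DESeq2 1.42.0, voom in limma 3.58.1, other scalings and count minimums, and leaving out mice. On simulated data for this comparison, over 11633 genes, an unadjusted p under 0.05 was reached by 69% of 100 genes with a log2 change of 1, by 94% of 100 genes with a log2 change of 2 and by 4.62% of 11433 unchanged genes. The simulation gave each gene the average spread fitted for its level, so these shares do not carry over to genes that vary more between mice.

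The members and gene lists were chosen with earlier results of these data known. Named beside the 9 members and Dio2 were up to 3 genes per pathway list and direction with the smallest p under 0.05, and the 3 genes best correlated with each of Pax7, Myf5 and Myod1. Any other gene was named with its values in view. The labels give separate mice, and these are the replicates of the tests between genotypes. In edgeR the variation between mice is estimated partly from all genes together. A result that bears on a gene list is not reported here.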

Additional observations from a re-analysis of the deposited data

How the results depend on the processing

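Of 118 alternative fold changes of the members, 86 kept their direction and their side of the threshold. All 42 alternative ratios stayed within 1 SD between mice. Leaving out 1 of 3 mice cannot move a ratio beyond that limit, so for those fits it is no check. Myf5/Pax7 ran from −0.14 to 0.53, Myog/Myod1 from −0.82 to 0.20 and Myf6/Myf5 from −0.56 to 1.55, with changes of sign, and Myog/Pax7 from −1.38 to −0.23, Myod1/Pax7 from −0.84 to −0.18 and Pax3/Pax7 from −0.61 to −0.15. The 621 genes higher became 110 with scaling to MuSC markers (162 without Des in it, chosen after seeing the data), 939 with no minimum, 974 with c129 and fl125 left out (chosen after seeing the data) and 1 at an adjusted p under 0.05, and 402 to 933 with 1 mouse left out. The 770 lower became 2118 with MuSC scaling, 505 at a minimum mean of 50, 0 at an adjusted p, and 399 to 874 with 1 mouse left out. The share higher among the genes called was 44.6%, and it was 32.0% with total counts, 4.94% with MuSC scaling (median of all genes −0.35; 12.9% and −0.20 without Des) and 37.3% to 55.6% with 1 mouse left out. The 1 member higher became 0 with DESeq2, voom, total counts, MuSC scaling with or without Des, a minimum of 50, an adjusted p, or c129 and fl125 left out, and 3 with no minimum, with 0 to 3 when 1 mouse was left out. The 0 lower became 1 with MuSC scaling (0 without Des) and stayed 0 with 1 mouse left out.

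Myf5 lost its call with DESeq2 (0.60), voom (0.54), total counts (0.53), MuSC scaling (0.23; without Des 0.35), a minimum of 50 (0.55) and c129 and fl125 left out (0.53), with 0.43 to 0.77 when 1 mouse was left out. Pax7 passed with no minimum (0.49, unadjusted p = 0.0297 in edgeR) and without fl128 (0.70), with 0.16 to 0.70 when 1 mouse was left out, and was −0.10 without c129 and fl125, its lowest WT and highest cD2KO mice, so that it had to shrink. Pax3 turned with voom (−0.072), MuSC scaling (−0.27; without Des −0.15), c129 and fl125 left out (−0.62), and 1 mouse left out (−0.41 to 0.39). Six4 passed with MuSC scaling (−1.26), though not without Des (−1.13). Msc passed with no minimum (0.56) and without c130 or fl128, with 0.32 to 0.76 when 1 mouse was left out. With 1 mouse left out Myod1 ran from −0.26 to 0.089, Myog from −0.80 to 0.30 (positive without fl126) and Tcf12 from −0.065 to 0.083, and Tcf12 was 0.0089 with no minimum. Fits with a lower minimum test more genes and those without a mouse use fewer samples; otherwise the cause was not tested. Pax3, Six4 and Myf6, at 29 counts or fewer per library, are limited by depth.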

Other observations

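The low Myog of fl126 was shared by several targets of the myogenic regulatory factors, named here after their values were seen. Mymk, which encodes the fusion protein myomaker, was at 9.99, 10.3 and 2.42 CPM in c124, c129 and c130 and at 14.5, 1.37 and 6.91 CPM in fl125, fl126 and fl128. Myh3, the embryonic myosin heavy chain, was at 2.82, 8.49 and 2.42 CPM in the WT mice and 13.6, 1.37 and 10.05 CPM in the cD2KO mice. Actc1, the cardiac actin of developing muscle, was at 26.4, 14.0 and 28.7 CPM in WT and 62.9, 10.9 and 40.8 CPM in cD2KO, and Tnnt2, the cardiac troponin T also made by young muscle, was at 11.5, 16.2 and 9.35 CPM in WT and 9.06, 3.76 and 24.2 CPM in cD2KO. In these 4 genes, as in Myog, fl126 was the lowest of the 6 mice, and they were picked for that. They are 4 of the 15 targets tested, against 12.8% of all genes tested, and c129 was the lowest in 4 others. The Mymk and Myh3 values of fl126 rest on 4 counts each. Ckb and Tnnt1 were not low in fl126, at 204 and 51.0 CPM.

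Of the partners of Pax7, Pax3 and Six4 that did not pass the test, Dach1, a cofactor that can repress, was at 7.68, 3.32 and 7.27 CPM in the WT mice and 0.906, 3.08 and 2.83 CPM in the cD2KO mice, with all cD2KO mice below all WT mice (log2 fold change −1.38 ± 0.67 SE, edgeR unadjusted p = 0.0601, adjusted p = 0.446). The homeobox gene Lbx1 was at 24.8, 23.6 and 20.4 CPM in WT and 27.2, 39.0 and 29.2 CPM in cD2KO, without overlap (0.47 ± 0.28, edgeR unadjusted p = 0.111, adjusted p = 0.538). Of the 16 partners tested, 2 (Six5 and Lbx1) were higher without overlap and 1 (Dach1) was lower. Among all 11633 genes tested, 937 were higher and 1168 were lower without overlap. The lack of overlap therefore does not set Dach1 or Lbx1 apart from genes in general.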
